A study of Mus musculus with 4 samples.

Results

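The genes described here encode growth factors, their receptors and Smad mediators, and the semaphorins, plexins, ephrins and Eph receptors of axon guidance, as measured in eosinophils of mice injected with tumour cells. They were chosen by gene symbol, from the families Vegf, Pdgf, Fgf, Tgfb, Bmp, Wnt, Fzd, Igf, Egf, Hgf, Nrg, Smad, Inhb, Acvr, Sema, Plxn, Nrp, Eph and Efn and the single genes Areg, Ereg and Hbegf. Of the 5807 genes that the authors listed as differing between eosinophils of the pleural cavity and of the bone marrow, 51 matched. Growth factors are secreted ligands that bind receptors on the cell surface. Ligands such as fibroblast growth factors, insulin-like growth factors and neuregulins act through receptor tyrosine kinases, whereas TGF-β, activins and BMPs act through serine and threonine kinases that phosphorylate Smad proteins. Semaphorins signal through plexins and ephrins through Eph receptors, both known for steering axons and both also found on leukocytes, where they affect migration and cell contact.

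Eosinophils were sorted from wild-type mice injected into the pleural space with LLC cells (Lewis lung carcinoma, a mouse tumour line), on day 2 by a figure legend. Bulk RNA was sequenced from 2 libraries of pleural lavage fluid and 2 of bone marrow. Mice were 6 to 8 weeks old by the methods, which list wild-type animals of the strains C57 BL/6 and BALB/C without tying a strain to these libraries, and neither source says whether animals were pooled. Both tissues carried the same treatment by the labels and methods, although the study elsewhere calls the marrow cells naïve, so no untreated group enters the comparison. The labels hold no day, and the legend does not say clearly whether day 2 also covers the marrow. The gates differed, since marrow cells were enriched on F4/80 beads and sorted as SiglecF+ cells of high side scatter, while pleural cells were enriched on CD45 beads and also had to be CD11c-, Gr1- or low, CD11b+ and F4/80+. The values are the authors' mean reads per tissue, with 1 mean for each tissue, so no spread between libraries, depth per library or test can be given. Mean reads of the listed genes summed to 15947438 in the pleural cavity and 11762543 in marrow. Each log2 ratio below is that of pleural cavity over bone marrow mean reads, with 0.5 reads added to each and 0.44 subtracted for these sums. Folds are ratios of mean reads per 1000000 listed reads of a tissue (RPM) without added reads, and their 95% intervals are exact conditional binomial intervals on the reads of both libraries of a tissue, which cover counting error only.

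Most of the genes were lower in pleural cavity eosinophils. Among the 51 genes, 35 were at least 2-fold lower, against 50.5% of all listed genes, and 9 were at least 2-fold higher, against 16.0% of all listed genes. The other 7 were higher by less than 2-fold, so 16 were higher and 35 lower by any size, beside 42.5% and 57.5% of all listed genes. The median log2 ratio was -3.76, or -3.19 with genes at 0 pleural reads set to a floor of 3 mean reads per library, against -1.02 for all listed genes on either count. The split depended on scaling, as 14 genes were at least 2-fold higher and 35 at least 2-fold lower with unscaled mean reads, where 30.5% and 43.2% of all listed genes were. With the median of the 1524 abundant genes (1000 or more mean reads in both tissues) set to 0, the counts were 6 and 35, beside 9.04% and 57.3% of all listed genes. These scalings moved the median of all listed genes from -1.02 to -0.58 and -1.46, and the sign of 1 gene, Fgfr1op2, turned under the second. In sorted bulk samples, fewer cells of a type and less RNA per cell cannot be told apart.

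Direction differed with the number of reads. Of the 13 genes that averaged 500 or more mean reads over the tissues, 11 were higher in the pleural cavity (84.6%), beside 64.6% of the 3034 listed genes at that level. Below that level, 5 of 38 were higher (13.2%), beside 18.3% of listed genes. Summed over the 51 genes, the level came to 3610 RPM in the pleural cavity and 2024 in marrow, so the summed level was higher where most single genes were lower. In pleural cavity eosinophils, 19 of the 51 genes had at most 3 mean reads, beside 17.9% of all listed genes, and 8 were at 0, beside 12.0%. A gene with so few reads in one tissue could be listed only by being higher in the other. All 51 genes had at least 10 mean reads in one tissue, and 35 had at least 50.

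**Figure D1:**
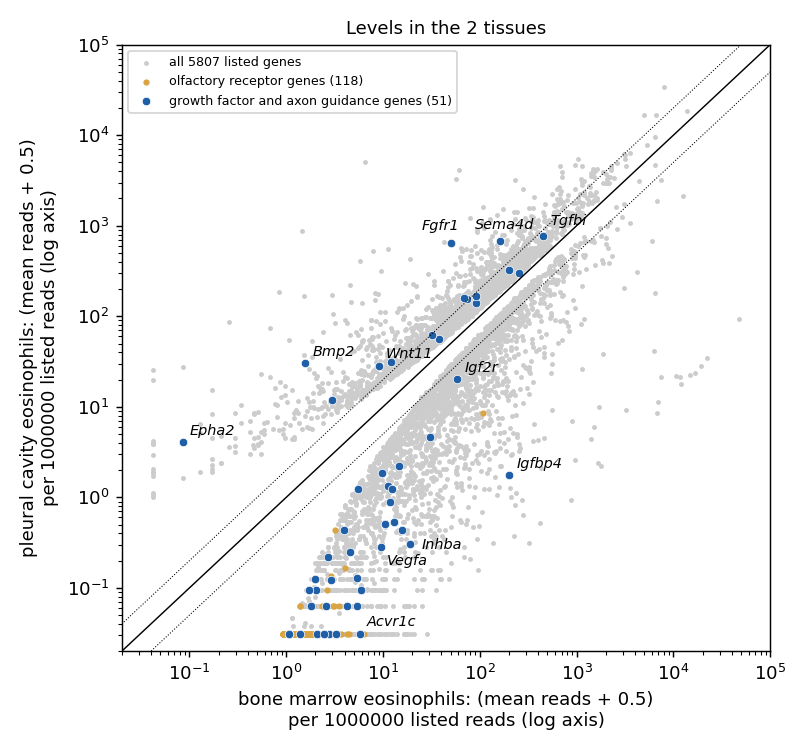
Reads per 1000000 listed reads (RPM), with 0.5 first added to the mean reads, in pleural cavity eosinophils (vertical, log axis) against bone marrow eosinophils (horizontal, log axis), 1 point per listed gene, with the solid line at equal levels and the dotted lines at 2-fold differences. The 51 growth factor and axon guidance genes lie mostly below the line at low levels, where the 118 olfactory receptor genes also lie, while Fgfr1, Sema4d, Bmp2 and Epha2 lie above it.

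Among the secreted ligands, 3 of 16 (18.8%) were higher in the pleural cavity and 13 lower, beside 42.5% and 57.5% of all listed genes. All of these ligands but Hgf averaged under 500 mean reads over the tissues, where 18.3% of listed genes were higher. Bmp2, a bone morphogenetic protein that signals through Smads, had 482 mean reads in the pleural cavity and 18 in marrow, 19.8-fold higher (14.2 to 28.4). Wnt11, a Wnt ligand known mainly for signalling without β-catenin, had 454.5 and 106 mean reads, 3.16-fold higher (2.72 to 3.69). Hgf, the hepatocyte growth factor that binds the receptor Met, had 883.5 and 448.5 mean reads, a log2 ratio of 0.54. Bmp2 was thus near the low end of read numbers in marrow and well covered in the pleural cavity, whereas Hgf was well covered in both tissues and differed by less than 2-fold. Met itself was listed at 0 pleural reads against 11.5 in bone marrow, at least 5.2-fold lower.

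The ligands that were lower included several classical growth factors. Inhba, whose product forms activin A, had 4.4 mean reads in the pleural cavity against 224.9 in marrow, 69.7-fold lower (35.4 to 149). Its mean reads are fractional, which was taken to mean that RSEM had divided reads between genes. Vegfa, the main growth factor of blood vessels, had 4 against 112, 38-fold lower (18.9 to 89). Igf1, the insulin-like growth factor that binds the Igf1 receptor, had 8 against 151, 25.6-fold lower (15.5 to 45.3). All 3 were close to absent from the pleural reads, while their marrow levels were themselves modest. Scaled for length, as RPM per kilobase of exon, the marrow level of Inhba was 2.99, that of Vegfa 2.22 and that of Igf1 1.3, below the 5.31 of Hgf in the same tissue. Fgf3, a secreted fibroblast growth factor, had 7.5 against 122 mean reads, 22.1-fold lower (13.1 to 40).

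All 3 listed neuregulins, ligands of the ErbB receptors, were lower, beside 2266 of the 2773 listed genes that averaged under 500 mean reads. Nrg1 had 21 mean reads in the pleural cavity and 132 in marrow, 8.52-fold lower (6.14 to 12.1). For Nrg4 the values were 35.3 and 172.9, 6.63-fold lower (5.11 to 8.65), with fractional reads, and 545 of its exon bases overlap other genes, among them Fbxo22 on the opposite strand. Nrg3 had 1 and 23.5 mean reads, 31.9-fold lower with a wide interval (8.34 to 271). Bmp5, another bone morphogenetic protein, was at 0 in the pleural cavity and at 24 in marrow, at least 10.8-fold lower, and 1878 of its exon bases overlap an antisense gene. The remaining 5 ligands, Pdgfc, Pdgfd, Fgf1, Fgf10 and Fgf16, lay between 12 and 23 mean reads in bone marrow and at 1.5 or fewer in pleural cavity eosinophils. These low values leave the size of each difference poorly fixed.

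The intracellular fibroblast growth factors, which are not secreted and bind sodium channels, gave the same direction. Fgf12 had 0.5 mean reads in the pleural cavity and 63.5 in marrow, 172-fold lower (30.4 to 6854). With 3 reads added, its log2 ratio moved from -6.44 to -4.69. Fgf14 had 1.5 and 33.7, 31.3-fold lower (9.93 to 151), with fractional reads. With them, all 6 listed genes of the 22 annotated fibroblast growth factors were lower under each scaling. Of the 2773 listed genes that averaged under 500 mean reads, 2266 were lower.

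Proteins that bind or activate growth factors were lower in all 3 cases, beside 57.5% of all listed genes. Igfbp4, which binds insulin-like growth factors outside the cell, had 27.5 mean reads in the pleural cavity against 2367 in marrow, 117-fold lower (89.5 to 155). Of the 51 genes it had the largest difference among those with over 10 mean reads in both tissues. Its length-scaled level was 45.6 in marrow and 0.39 in the pleural cavity. Its gene occupies bases 99041244 to 99054392 of chromosome 11 (GRCm38). Igfbp6, another binding protein, had 6.5 against 46.5 mean reads, 9.7-fold lower (5.4 to 18.9). Hgfac, a protease that activates hepatocyte growth factor, was at 0 against 38, at least 17.2-fold lower.

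Growth factor receptors went both ways, with 2 of 6 higher and 4 lower, beside 42.5% and 57.5% of all listed genes. Fgfr1, the receptor tyrosine kinase for fibroblast growth factors, had 10409 mean reads in the pleural cavity and 586 in marrow, 13.1-fold higher (12.4 to 13.9). Its length-scaled level was 66.1 in the pleural cavity and 5.04 in marrow. It was the only listed gene of the 4 annotated receptors of its family, and its gene occupies bases 25513654 to 25575718 of chromosome 8 (GRCm38), with 164 exon bases shared with an antisense gene. The receptor was thus high where the 6 listed fibroblast growth factors were low. Tgfbr2, the receptor that binds TGF-β and activates its partner kinase, had 2672.5 and 1073 mean reads, a log2 ratio of 0.88 and 1.84-fold higher (1.75 to 1.93).

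The lower receptors had fewer reads in the pleural cavity than the higher ones. Igf2r, which carries lysosomal enzymes and removes Igf2 from the cell surface, had 325 mean reads in the pleural cavity and 686.5 in marrow, 2.86-fold lower (2.61 to 3.15). Acvrl1, a kinase receptor for BMPs known from blood vessels, had 29 and 114.5, 5.35-fold lower (4 to 7.27). Fzd3, a Wnt receptor, had 3.5 and 53.5, 20.7-fold lower (9.72 to 52.8). Acvr1c, a kinase receptor of the activin branch, was at 0 against 67, at least 30.3-fold lower. Among these 4 only Igf2r had over 50 mean reads in both tissues.

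All 3 listed Smads, of 8 annotated, were higher in the pleural cavity under each scaling. All 3 averaged 500 or more mean reads over the tissues, where 64.6% of the 3034 listed genes were higher. Smad3, which receptors of TGF-β and activin phosphorylate, had 2443.5 mean reads in the pleural cavity and 856.5 in marrow, 2.1-fold higher (1.99 to 2.22). Smad2, activated by the same receptors, had 2259.5 and 1079, a log2 ratio of 0.63. Smad4, the partner that activated Smads bind, had 991 and 376, a log2 ratio of 0.96. Whether they reached 2-fold depended on scaling. Smad3 alone did, while all 3 did with unscaled mean reads, at log2 ratios of 1.07 for Smad2, 1.51 for Smad3 and 1.4 for Smad4, and none did with the median of abundant genes set to 0, at 0.18, 0.63 and 0.51. None of the 3 annotated TGF-β ligands and none of the 3 annotated receptor genes with symbols starting Bmpr was listed.

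**Figure D2:**
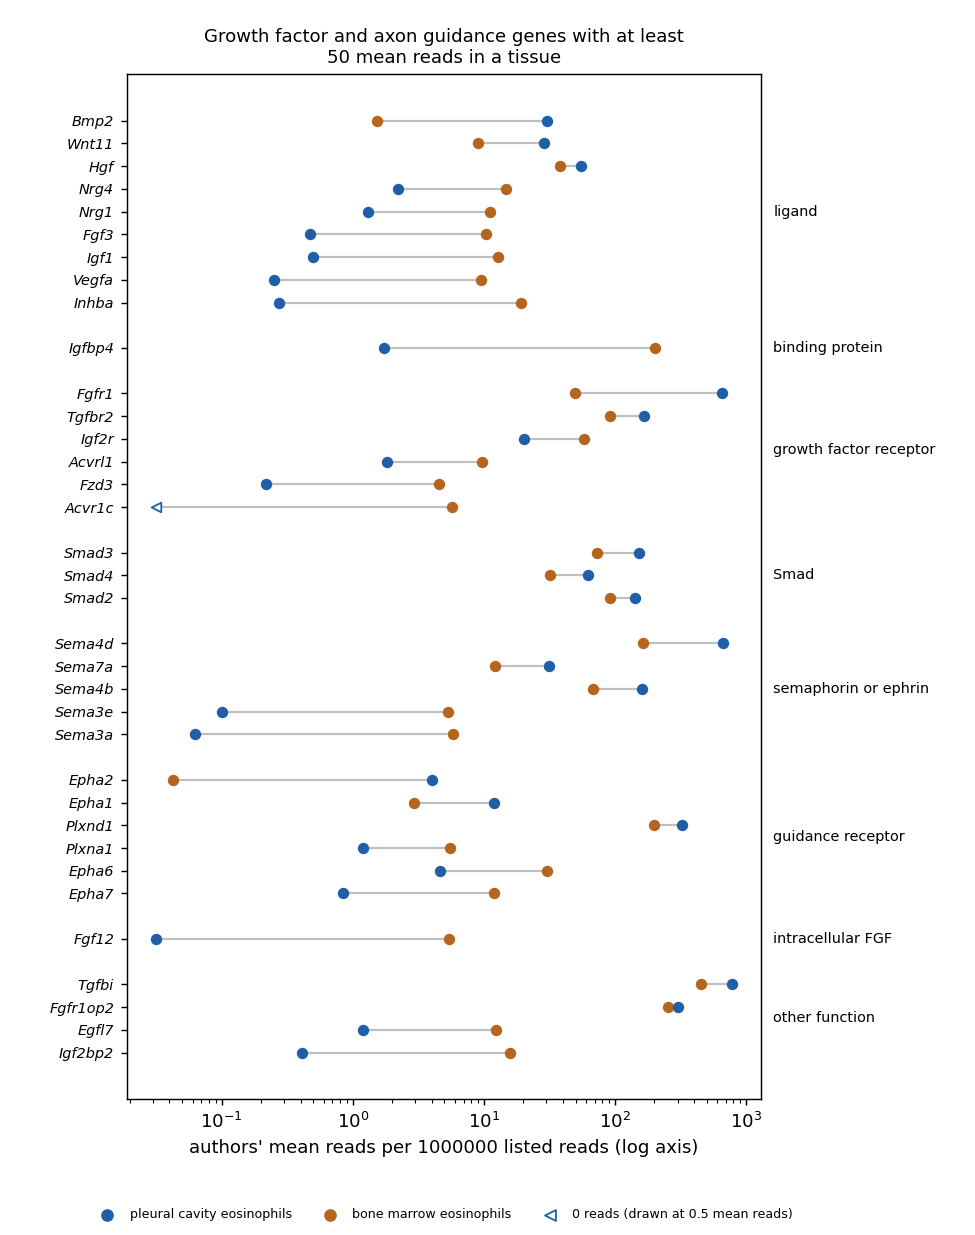
Authors' mean reads per 1000000 listed reads (horizontal, log axis) in pleural cavity and bone marrow eosinophils for the 35 genes that reached 50 mean reads in a tissue, grouped by role, with 1 mean per tissue and no error bars. The Smads, Fgfr1, Tgfbr2 and the semaphorins Sema4d, Sema7a and Sema4b lie higher in the pleural cavity. Most ligands lie higher in bone marrow, as do 57.5% of all listed genes. Acvr1c, at 0 pleural reads, is drawn as an open triangle at 0.5 mean reads.

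The semaphorins went both ways, with 3 of 8 higher, beside 42.5% of all listed genes. Sema4d, a membrane semaphorin of leukocytes that binds plexin B1 and Cd72, had 10684.6 mean reads in the pleural cavity and 1919.8 in marrow, 4.1-fold higher (3.97 to 4.25), with fractional reads that make it uncertain. Sema7a, anchored to the membrane by a lipid, had 501 and 142, 2.6-fold higher (2.28 to 2.98). Sema4b, a membrane semaphorin of the same class as Sema4d, had 2568.5 and 804, 2.36-fold higher (2.23 to 2.49). All 3 are held at the cell membrane, and with the median of abundant genes set to 0 Sema7a and Sema4b had log2 ratios of 0.93 and 0.79, short of 2-fold. Sema4d was the second of the 51 genes in length-scaled level in the pleural cavity, at 87.2 against 21.3 in marrow.

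Secreted semaphorins of class 3, which repel axons and growing vessels, were nearly without reads in the pleural cavity. Sema3a had 1 mean read there and 69 in bone marrow eosinophils, 93.5-fold lower (25.4 to 780). With 3 reads added, its log2 ratio moved from -5.97 to -4.61. Sema3e, a direct ligand of Plxnd1, had 1.6 and 62.5, 54.5-fold lower (18.9 to 278), with fractional reads. Sema3d had 0.5 and 49, 133-fold lower with a wide interval (23.3 to 5301). The class 3 genes thus ran opposite to the membrane semaphorins above, but on far fewer reads. The membrane semaphorins Sema6d and Sema5a were also lower, with 3 and 31 mean reads for Sema6d, 14-fold lower (6.08 to 39.6), and 0 and 28.5 for Sema5a, at least 12.9-fold lower. Efna5, the listed ephrin of 8 annotated, was at 0 against 16, at least 7.23-fold lower.

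Among the receptors for guidance cues, 3 of 7 were higher and 4 lower, beside 42.5% and 57.5% of all listed genes. Epha2, an Eph receptor tyrosine kinase, had 64 mean reads in the pleural cavity and 0.5 in marrow, a ratio of 94.4 (16.6 to 3758). With 3 reads added, its log2 ratio moved from 5.57 to 3.82. Epha2 was the one gene of the 51 with at most 3 mean reads in marrow. Epha1, a kinase of the same family, had 189.7 and 34.4, 4.07-fold higher (3.13 to 5.32), with fractional reads and 236 exon bases shared with Zyx on the opposite strand. Plxnd1, the plexin that binds Sema3e, had 5182.5 and 2327.5, a log2 ratio of 0.72 and 1.64-fold higher (1.59 to 1.7). Plxnd1 was well covered in both tissues although its ligand Sema3e was nearly absent from the pleural reads.

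The other Eph receptors were lower. Epha6 had 74.4 mean reads in the pleural cavity and 355.3 in marrow, 6.47-fold lower (5.42 to 7.77), with fractional reads. Epha7 had 13.5 and 139.5, 14-fold lower (9.42 to 21.6). Epha5 was at 0 against 32, at least 14.5-fold lower. The 5 listed Eph receptors, of 14 annotated, thus split between 2 higher and 3 lower under each scaling. Plxna1, a plexin that serves class 3 semaphorins together with neuropilins, had 19 and 65 mean reads, 4.64-fold lower (3.21 to 6.85), and 970 of its exon bases overlap an antisense gene. Neither of the 2 neuropilins was listed.

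A further 5 genes carry a growth factor in their name but do other work. Tgfbi, a secreted matrix protein induced by TGF-β, had 12376.5 mean reads in the pleural cavity and 5309 in marrow, a log2 ratio of 0.78 and 1.72-fold higher (1.68 to 1.76). It had the highest length-scaled level of the 51 genes in both tissues, at 206 and 120. Fgfr1op2, named as a fusion partner of the FGFR1 gene, had 4796 and 3004.5 mean reads and a log2 ratio of 0.24, which became -0.21 with the median of abundant genes set to 0. Egfl7, a secreted protein of endothelial cells with EGF-like domains, had 19 and 145, 10.3-fold lower (7.36 to 14.9), and shares exon bases with Agpat2 and Mir126a. Igf2bp2, an RNA-binding protein named for the Igf2 transcript, had 6.5 and 184.5, 38.5-fold lower (22.2 to 73). Egfem1 had 0.5 and 29.5, 80-fold lower (13.8 to 3212). Without these 5 genes, 14 of 46 were higher and 32 lower.

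How often a family was listed also varied. Of 205 protein-coding symbols in the annotation that match the families, 51 were listed (24.9%), close to the 25.2% of all protein-coding genes. Semaphorins were listed for 8 of 20 genes and neuregulins for 3 of 4. By contrast, Wnt11 was the only listed Wnt of 19 and Fzd3 the only listed frizzled of 10. None of Areg, Ereg, Hbegf and Egf was listed, nor either of the 2 PDGF receptors. A gene that is not listed may be unexpressed or similar in both tissues, which cannot be told apart here.

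Other genes of the same pathways were counted beside these families. Of 42 genes of TGF-β and BMP signalling, 12 were listed, with 5 (41.7%) at least 2-fold higher and 4 (33.3%) at least 2-fold lower, beside 16.0% and 50.5% of all listed genes. Their median log2 ratio was 0.93, beside -1.02. Furin, a protease that processes TGF-β precursors, had 4456.3 mean reads in the pleural cavity and 732.5 in marrow, 4.49-fold higher (4.25 to 4.75), with fractional reads. Ski, a repressor of Smads, had 2742.5 and 714.5, 2.83-fold higher (2.67 to 3). Id2, a target of BMP signalling, had 11401 and 4753, a log2 ratio of 0.82. Thus 8 of the 12 listed genes were higher by any size, as the 3 Smads were, and 4 were lower. That is 66.7% higher, beside 42.5% of all listed genes. Of the listed genes that averaged 500 or more mean reads over the tissues, 64.6% were higher, which is near the share of this list. Thbs1, a matrix protein that activates latent TGF-β, had 1656.5 and 4723, 3.87-fold lower (3.72 to 4.02). Tgif1, a corepressor of Smads, had 93.5 and 368, and Eng, a coreceptor, had 171.5 and 312.5. With unscaled mean reads 8 of the 12 were at least 2-fold higher and 2 at least 2-fold lower, beside 30.5% and 43.2% of all listed genes. With the median of abundant genes set to 0, 3 were at least 2-fold higher, beside 9.04%, and without genes with fractional reads 3 were.

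For the ErbB and other receptor kinases, 10 of 33 genes were listed, with 1 (10%) at least 2-fold higher and 6 (60%) at least 2-fold lower, beside 16.0% and 50.5% of all listed genes. The median was -2.88, or -2.57 with genes at 0 set to the floor, beside -1.02, and with unscaled mean reads 2 genes were at least 2-fold higher. Dusp6, a phosphatase of ERK that ERK signalling itself induces, had 6347.5 mean reads in the pleural cavity and 908 in marrow, 5.16-fold higher (4.91 to 5.42). Adam17, which sheds ErbB ligands, had 1712 and 989.5, and Cblb, a ubiquitin ligase for receptors, had 896.5 and 388.5. The feedback inhibitors Spred2 and Spry2 were lower, with 154.6 and 775.3 mean reads for Spred2 and 39.5 and 236 for Spry2. The adaptor Shc1 had 2768.5 and 3023, a log2 ratio of -0.57. The ligand Tgfa was at 0 against 20.5, at least 9.26-fold lower.

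In insulin-like growth factor signalling, 10 of 23 genes were listed, 2 (20%) at least 2-fold higher and 3 (30%) at least 2-fold lower, beside 16.0% and 50.5% of all listed genes, and the median was 0.38, beside -1.02. Akt1, a kinase downstream of the receptor, had 5612.5 mean reads in the pleural cavity and 2040.5 in marrow, 2.03-fold higher (1.96 to 2.1). With the median of abundant genes set to 0, Akt1 was less than 2-fold higher, and 1 gene of the list was at least 2-fold higher. The related Akt2 had 2289.5 and 1291.5, and Pik3r1, the regulatory subunit of PI3 kinase, had 2804 and 1217.5. Grb10, an adaptor that inhibits the receptor, had 11 and 236.5, 29.1-fold lower (19 to 47). Akt1, Akt2 and Pik3r1 were thus well covered in both tissues, unlike Igf1. Pappa, the protease that cleaves Igfbp4, was at 0 against 17.5, at least 7.91-fold lower, and Stc2, an inhibitor of that protease, at 0 against 16.5, at least 7.46-fold lower.

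Of 50 genes of Wnt signalling, 10 were listed, 1 (10%) at least 2-fold higher and 6 (60%) at least 2-fold lower, beside 16.0% and 50.5% of all listed genes. The list had a median of -2.73, or -2.53 with genes at 0 set to the floor, beside -1.02. Axin2, a target and inhibitor of the pathway, had 431 mean reads in the pleural cavity and 144 in marrow, 2.21-fold higher (1.93 to 2.53). Gsk3b, the kinase that marks β-catenin for degradation, had 3431 and 1893, a log2 ratio of 0.42, and Dvl3, an adaptor of frizzleds, 1576 and 909.5. With the median of abundant genes set to 0, no gene of this list was at least 2-fold higher, and with unscaled mean reads 2 were. Rnf43, a ubiquitin ligase that removes frizzleds, had 30.5 and 230.5, 10.2-fold lower (7.83 to 13.6), and the related Znrf3 had 20 and 65. Celsr1, a cadherin of planar polarity, had 6 and 49.5. The secreted proteins Dkk2 and Rspo3 were at 0 against 17 and 31, at least 7.68-fold and 14-fold lower.

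Among 53 other axon guidance genes, 16 were listed, 3 (18.8%) at least 2-fold higher and 10 (62.5%) at least 2-fold lower, beside 16.0% and 50.5% of all listed genes. Of the 3 higher genes, all but Dpysl2 have fractional reads, and the median was -2.5, or -2.35 with genes at 0 set to the floor, beside -1.02. Dpysl2, which relays semaphorin 3A signals to microtubules, had 2491 mean reads in the pleural cavity and 378.5 in marrow, 4.85-fold higher (4.5 to 5.25). Fes, a tyrosine kinase of myeloid cells that is linked to plexin signalling, had 17389 and 9402, a log2 ratio of 0.45. L1cam, an adhesion molecule of axons, had 1417.5 and 556.5, a log2 ratio of 0.91. Mical1, an oxidase of actin that plexins activate, had 2567 and 3098, a log2 ratio of -0.71. By any size 5 of the 16 were higher (31.2%) and 11 lower, beside 42.5% and 57.5% of all listed genes. Without genes with fractional reads, 1 gene was at least 2-fold higher and 7 at least 2-fold lower. Limk2, a kinase of cofilin, had 614.5 and 979.5, 2.16-fold lower (2.01 to 2.32), and Tiam1, an activator of Rac, had 154.5 and 572. The secreted cue Slit2 and the netrin receptor Dcc were at 0 against 36.5 and 38.5, at least 16.5-fold and 17.4-fold lower.

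Genes of low level in marrow were set beside olfactory receptor genes, known mainly from the nose. The 118 listed olfactory receptor genes were all lower in pleural cavity eosinophils, 116 with at most 3 mean reads there and 104 at 0, and their median in bone marrow was 17 mean reads. Of the growth factor and guidance genes, the 16 that did not reach 50 mean reads in a tissue were also all lower, 15 of them with at most 3 pleural reads and 7 at 0, and their marrow median was 26.2. Of the 23 that averaged under 50 mean reads over the tissues 22 were lower and 19 had at most 3 pleural reads, beside 1155 and 963 of all 1203 listed genes under that limit. The lower direction was shared with other listed genes of few reads. For genes with at most 3 pleural reads it was fixed by the listing, since they could be listed only by being higher in marrow. Summed over the olfactory receptor genes, the level was 9.6 RPM in the pleural cavity and 315 in marrow. Whether the marrow reads of the growth factor and guidance genes of low level come from transcripts of eosinophils was not tested.

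Genomic span also differed among the 51 genes. The 19 genes with at most 3 pleural reads had a median span of 231 kb, and 15 of them (78.9%) spanned over 100 kb. In all listed genes with at most 3 pleural reads, the median was 29.6 kb and 29.3% spanned over 100 kb. The 16 higher genes had a median of 39.9 kb, with Sema4d and Smad3 over 100 kb, against 23.3 kb for all higher listed genes. Olfactory receptor genes had a median of 5.86 kb, so few pleural reads were not limited to long genes. Of the 256 listed genes over 300 kb, 14.1% were higher and 51.2% had at most 3 pleural reads, beside 0 and 8 of the 10 growth factor and guidance genes of that span, among them Nrg3, Sema3a and Epha5.

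**Figure D3:**
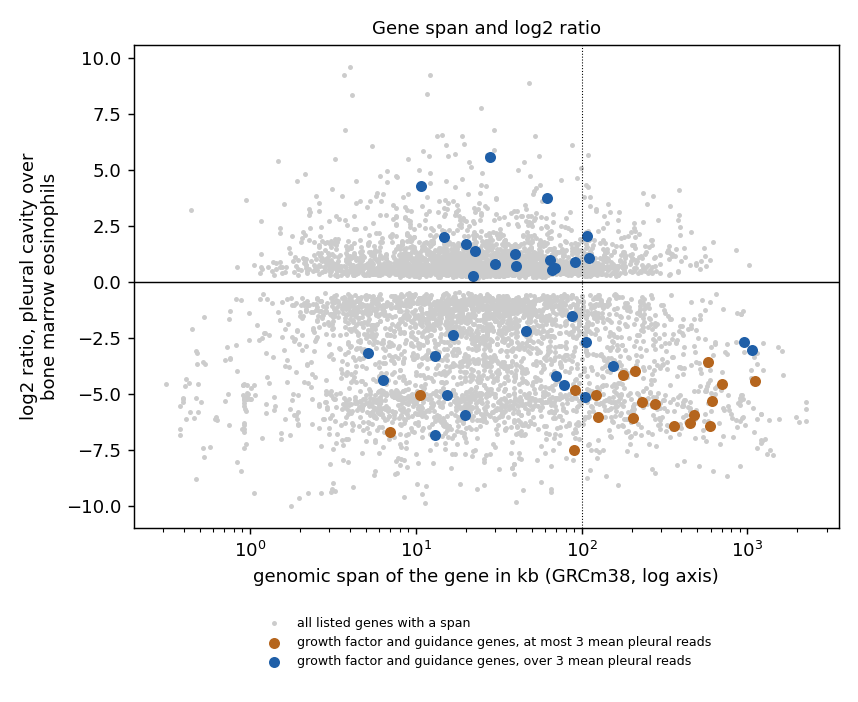
Log2 ratio of pleural cavity over bone marrow eosinophils (vertical) against the genomic span of the gene in kb (horizontal, log axis), 1 point per listed gene with a span, with the dotted line at 100 kb. Of the 19 growth factor and guidance genes with at most 3 mean pleural reads, 15 lie to the right of the dotted line, while 2 of the 16 higher genes do.

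Markers of other cells differed between the tissues as well. All 13 markers of neutrophils and granulocyte precursors were listed and lower in the pleural cavity, with a summed level of 2300 RPM against 116730 in marrow. Retnlg held most of the pleural sum, with 33927 mean reads there and 147022 in marrow. Ngp, the most abundant of them, had 546.5 mean reads in the pleural cavity and 263228.5 in marrow. Of 8 basophil and mast cell markers 6 were listed, all lower, at 18.4 against 1057 RPM in sum, with Prss34 the most abundant at 4.5 and 3810.5 mean reads. Of 8 stem and progenitor markers 7 were listed, Meis1, the most abundant, higher and 6 lower, at 164 against 540 RPM in sum. Igfbp4, Inhba, Vegfa and Igf1 thus stood lower together with these lists. The methods describe the sorted eosinophils as of high purity, and the part of other cells in the values of these 4 genes was not tested.

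Monocyte and macrophage markers were listed for 9 of 14 genes, 5 higher and 4 lower, with a summed level of 5474 RPM in the pleural cavity and 10426 in marrow. Lyz2, the most abundant, had 50392.5 mean reads in the pleural cavity and 87527.2 in marrow, while Csf1r had 20627.5 and 3973.5 and C1qb 5065 and 1093. Of 10 megakaryocyte and platelet markers 4 were listed, at 106 against 243 RPM in sum, with Itga2b the most abundant at 587.5 and 2640.5 mean reads and Pf4 higher at 1069.5 against 62. Of 15 markers of mesothelial cells, fibroblasts and endothelium 8 were listed, 1 higher and 7 lower, at 155 against 227 RPM in sum, with Krt18 the most abundant at 1918 and 518 mean reads. Lymphocyte markers were listed for 4 of 14 genes, 1 higher and 3 lower, at 32.9 against 912 RPM in sum. Nkg7, the most abundant, held most of the marrow sum with 112 and 10432 mean reads, while Ms4a1 was higher at 366 against 107. Erythroid markers were listed for 4 of 9 genes, all lower, at 0.941 against 92.9 RPM, with Car2 the most abundant. Monocyte and macrophage markers thus went both ways, with Ly6c2 lower at 608.5 against 22102 mean reads, which are fractional, and the part of such cells in the values of Fgfr1, Tgfbr2, Tgfbi and Bmp2 was not tested.

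Eosinophil markers were present in both tissues. Of 14 such genes 12 were listed, 5 higher and 7 lower, at 14687 against 98236 RPM in sum. Siglecf, on which both gates rest, had 21371 mean reads in the pleural cavity and 7105.5 in marrow, and Ccr3, the eotaxin receptor, 67556.5 and 17177.5. The granule gene Prg2, the most abundant, had 1482 and 555403.5. Eosinophil markers thus went both ways, while Igfbp4 and most growth factor ligands were lower in the pleural cavity.

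The 250 bases upstream of the RefSeq starts (GRCm38.p6) were available for 41 of the 51 genes, in 57 windows. They were searched on both strands for TGACGTCA, the cAMP response element, for TGANTCA, the AP-1 site, and for AGATAA, a site of GATA factors. The cAMP response element was in 1 of the 57 windows, that of Epha2, and in 1.55% of all 32851 windows. AP-1 letters were in 3 windows, of Fgf12, Igf1 and Sema4d, and in 6.75% of all windows, while GATA letters were in 4 windows, of Fgf3, Nrg4, Pdgfd and Vegfa, and in 9.99% of all. A match describes the letters and does not show a bound site. Windows of 2 genes higher and 1 lower in the pleural cavity are shown with the matched letters in capitals, those of Epha2 at chr4:141300971-141301220 on the plus strand, of Sema4d at chr13:51748811-51749060 on the minus strand, and of Vegfa at chr17:46032378-46032627 on the minus strand, each read 5′ to 3′ along its gene. Sema4d and Vegfa have further windows without a match, which are not shown. The 3 genes were chosen after the values were seen, as examples of each direction.
Epha2: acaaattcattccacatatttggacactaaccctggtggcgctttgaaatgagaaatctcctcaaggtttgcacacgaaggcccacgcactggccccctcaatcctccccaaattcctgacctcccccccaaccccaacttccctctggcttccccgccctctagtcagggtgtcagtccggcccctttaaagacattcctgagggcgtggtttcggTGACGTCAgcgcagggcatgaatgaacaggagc
Sema4d: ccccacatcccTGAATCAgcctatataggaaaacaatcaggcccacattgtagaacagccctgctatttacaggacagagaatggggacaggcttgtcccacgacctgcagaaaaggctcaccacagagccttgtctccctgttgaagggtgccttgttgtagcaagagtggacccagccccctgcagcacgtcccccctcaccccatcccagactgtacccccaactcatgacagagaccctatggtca
Vegfa: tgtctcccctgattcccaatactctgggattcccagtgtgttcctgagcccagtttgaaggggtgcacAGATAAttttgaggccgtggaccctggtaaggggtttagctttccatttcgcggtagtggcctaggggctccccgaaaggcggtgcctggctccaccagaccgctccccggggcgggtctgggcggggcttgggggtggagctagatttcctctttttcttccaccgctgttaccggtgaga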

How the data were processed

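Libraries were grouped by tissue from their labels, 2 per tissue. According to the methods, reads were trimmed with SOAPnuke, aligned with HISAT2 2.1.0 to GRCm38, mapped to genes with Bowtie2 2.2.5 and quantified with RSEM 1.2.8. The deposited values are expected counts from RSEM, given as 1 mean per tissue with no scaling for depth. The authors' own log2 fold changes, p-values and q-values are in the same table and were not used, except that the deposited q-values were checked to be at most 0.05 for every listed gene. The number of unused per-library columns was 0.

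Log2 ratios, counts past 2-fold and exact conditional (Clopper-Pearson) intervals on 2 times the mean reads were computed in Python 3.11.15 with pandas 2.3.3, numpy 2.4.6 and scipy 1.17.1, and tested on simulated data. Plots used matplotlib 3.10.9. The floor for genes at 0 was 3 mean reads per library. Fractional mean reads, present for 7 of the 51 genes, were taken to mark genes among which RSEM divided reads. The genes that shared such reads were not identified. Exons of 16 of the 51 genes overlap another gene, a protein-coding one for 4, and strand use in counting is not given in the sources used here. Spans, exon lengths and coordinates are from a GENCODE release of GRCm38 earlier than the authors'. The plan was to name genes with at least 50 mean reads in a tissue and up to 2 others per role, but all 51 genes are named, so the text goes beyond it. From each pathway list, up to 3 genes with the most reads in each direction were named, together with some at 0, and from each marker list the most abundant. Other names were chosen after their values were seen. Some genes of these lists are not reported here by name. The genes and lists were chosen with earlier results of these data known. Alternatives covered scaling, added reads, a filter on low reads, a 4-fold threshold, fractional genes and genes of other families.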

Additional observations from a re-analysis of the deposited data

How the results depend on the processing

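Counts of growth factor and guidance genes at least 2-fold lower ranged from 30 to 35 over the alternatives, beside 35. At least 2-fold higher were 9 genes, 14 with unscaled mean reads and 5 at a 4-fold threshold. For the pathway lists, whose alternatives were chosen after seeing the data, unscaled mean reads gave 2 higher genes in ErbB and other receptor kinase signalling, 8 higher and 2 lower in TGF-β and BMP signalling and 2 higher in Wnt signalling. With the median of abundant genes set to 0, higher genes numbered 3 in TGF-β and BMP, 0 in Wnt and 1 in insulin-like growth factor signalling. At 4-fold they numbered 2, 0 and 1, with 1 lower in TGF-β and BMP signalling. Without fractional genes, 3 were higher in TGF-β and BMP and 1 in axon guidance signalling. A shift of scale or a stricter threshold changes these counts by construction, and for fractional genes fewer genes are counted. Moves of single log2 ratios were counted only for the 35 genes that reached 50 mean reads in a tissue. Of these 35, 19 moved beyond their counting interval under each other scaling, and 1 sign turned, that of Fgfr1op2. With 3 reads added 4 moved, those of Acvr1c, Epha2, Fgf12 and Sema3a.

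No paired analysis was possible because the table holds means per tissue and no value per library, and leaving out each library was not run for the same reason. Depth limits the genes with few reads in one tissue, whose folds have wide intervals, and the spread between libraries or animals is unknown.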
